A study of Mus musculus with 12 samples.

Results

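The subject here is 8 marker genes of resident Kupffer cells, the macrophages that live in the blood sinusoids of the liver. The genes are Clec4f, Timd4, Vsig4, Cd5l, Marco, Cd163, Folr2 and Cd207. They were chosen by name and found by their Ensembl gene IDs, as 8 of the 55359 genes in the count table. All 8 had counts in each of the 12 libraries, and all 8 were among the 15274 genes that passed the filter on low counts and were tested.

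The libraries are bulk RNA-seq of liver sections. The animals were C57BL/6NTac males, with 4 libraries in each of 3 groups. The lean group was fed normal chow and dosed with Control-mRNA. The HFD control group was dosed with Control-mRNA as well but fed a high-fat diet (HFD). The NM-FGF19 group, on the same high-fat diet, was dosed with mRNA that encodes NM-FGF19, a non-mitogenic form of the gut hormone FGF19. Every mouse, lean mice included, was given its mRNA weekly for 6 weeks in lipid nanoparticles (LNP), and livers were taken 24 h after the last dose. The labels call the mice 24 weeks old. The feeding time is stated as 21 weeks up to treatment by the series text and as 28 weeks by the growth protocol. The columns of the HFD control libraries carry the name mOX40L, while the labels describe their mRNA only as a control. Tnfsf4, the mouse gene for OX40 ligand, had 0 counts in all 4 of them, as in the lean libraries. These counts do not show what the control mRNA was, and its sequence is not given in the sources used here. All mice of the 3 groups received LNP, and livers without LNP were not analysed here.

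Kupffer cells come from precursors that enter the liver before birth. They renew themselves locally and clear bacteria, dying cells, old red blood cells and lipoproteins from portal blood. Their identity depends on signals from neighbouring stellate, endothelial and liver cells, among them Notch ligands, TGF-beta family ligands and CSF1. Transcription factors such as LXR-alpha, ID3, SPI-C and ZEB2 act downstream. In fatty liver disease, resident Kupffer cells are known to be partly lost and monocyte-derived macrophages to enter the liver. Timd4 is the marker that is slowest to appear on macrophages of monocyte origin.

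Library totals ranged from 23743415 to 33257260 counts. CPM is the usual unit in which each library is scaled to the same total count. Before any further correction, 3 counts correspond to between 0.0902 and 0.126 CPM, a range that TMM scaling shifts. Levels below are CPM on totals scaled by TMM, a correction for composition that ranged from 0.779 in lean 3 to 1.17. Liver markers were abundant throughout, with summed CPM of 8 hepatocyte genes from 49998 to 129244. On the first pair of principal components, lean 3 and HFD control 3 were the libraries most distant from the rest of their groups. NM-FGF19 4 also lay apart from its group. It was at 38.4 on the first component, where NM-FGF19 1 to 3 were at −4.67, 5.86 and −9.11. Counts of changed genes without lean 3 and HFD control 3 are also given below for HFD control against lean. Over all genes they are given for NM-FGF19 against HFD control as well. NM-FGF19 4 was left out only singly. The labels give replicate numbers but do not say how mice were housed or libraries batched.

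The RefSeq promoters of 4 of the 8 genes are shown because these genes cover the range of responses to the diet. Timd4 and Cd163 had the lowest levels on the high-fat diet relative to lean. Clec4f and Cd207 are next to each other on chromosome 6, with no coding gene between them in GRCm38.p6. Clec4f fell on the diet and Cd207 did not pass the test. Each sequence is the 250 bases before the gene's start, 5′ to 3′ on the gene's strand, in RefSeq's GRCm38.p6 annotation. The Timd4 window is chr11:46810549-46810798 (plus strand) and the Cd163 window chr6:124304401-124304650 (plus strand). The Clec4f window is chr6:83656117-83656366 (minus strand) and the Cd207 window chr6:83677858-83678107 (minus strand). Capitals mark 6-letter matches, on either strand, to core motifs of 5 kinds of transcription factor that act in Kupffer cells.
Timd4: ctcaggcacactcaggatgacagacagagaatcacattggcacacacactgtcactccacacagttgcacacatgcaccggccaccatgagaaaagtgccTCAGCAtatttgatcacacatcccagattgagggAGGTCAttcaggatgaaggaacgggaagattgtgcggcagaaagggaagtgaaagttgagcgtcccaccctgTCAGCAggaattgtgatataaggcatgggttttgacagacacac
Cd163: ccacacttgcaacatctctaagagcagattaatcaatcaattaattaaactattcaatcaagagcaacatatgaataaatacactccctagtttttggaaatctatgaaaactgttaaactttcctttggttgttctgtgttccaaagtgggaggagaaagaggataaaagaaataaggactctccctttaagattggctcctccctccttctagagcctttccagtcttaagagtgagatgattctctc
Clec4f: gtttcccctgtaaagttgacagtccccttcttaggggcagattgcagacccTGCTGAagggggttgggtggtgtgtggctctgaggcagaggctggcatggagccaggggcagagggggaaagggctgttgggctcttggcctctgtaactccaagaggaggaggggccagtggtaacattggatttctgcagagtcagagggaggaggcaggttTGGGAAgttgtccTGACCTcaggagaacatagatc
Cd207: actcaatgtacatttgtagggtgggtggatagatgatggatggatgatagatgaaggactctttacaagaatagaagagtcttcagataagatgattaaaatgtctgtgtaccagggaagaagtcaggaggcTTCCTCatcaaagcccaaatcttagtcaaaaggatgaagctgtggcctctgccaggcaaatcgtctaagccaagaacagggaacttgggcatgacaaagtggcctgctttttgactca

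The 5 motifs were GAGGAA for PU.1, TGCTGA for MAF factors, TGGGAA for RBPJ (the partner of Notch), AGGTCA for nuclear receptors such as LXR-alpha, and GTCTAG for SMAD proteins. Of the 8 genes, all of which had a RefSeq promoter, 4 held the PU.1 letters (Vsig4, Cd5l, Marco and Cd207), against 23.3% of 32851 promoters. The MAF letters were in 4 (Clec4f, Timd4, Cd5l and Folr2), against 16.1% of promoters. Clec4f and Marco held the RBPJ letters (21.6% of promoters), Clec4f and Timd4 the nuclear receptor letters (14.0%), and Folr2 the SMAD letters (7.11%). The Cd163 window held none of the 5 motifs and the Cd207 window only the PU.1 letters. None of the motifs was in the windows of all 8 genes. A match of 6 letters is a description of the sequence and does not show that a factor binds there.

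The first comparison, HFD control against lean, asks how the high-fat diet changed these genes in mice whose mRNA is labelled as a control in both groups. Cd163, Timd4, Marco, Vsig4 and Clec4f fell, by between 5.93 and 68.1 times in mean CPM. Folr2 was lower in every HFD control library than in any lean one but did not pass the test. Cd5l and Cd207 did not pass the test and had positive log2 changes. By edgeR's quasi-likelihood test with Benjamini-Hochberg adjustment over all 15274 genes, 5 of 8 were lower at an adjusted p under 0.05, 0 were higher and 3 did not pass. Of all genes tested, 3.29% were lower by the same rule, 5.04% higher and 8.33% changed in either direction. Log2 changes were negative for 6 of the 8 genes and 52.5% of all genes, and unadjusted p-values were under 0.05 for 6 of the 8 and 24.6% of all genes. The median log2 change of the 8 genes was −2.65, against −0.02 over all genes. Without lean 3 and HFD control 3, a setting added after the data had been seen, 3 genes stayed past the threshold (Clec4f, Timd4 and Vsig4). In bulk liver RNA, fewer cells of a type and less RNA per cell cannot be told apart.

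**Figure D1:**
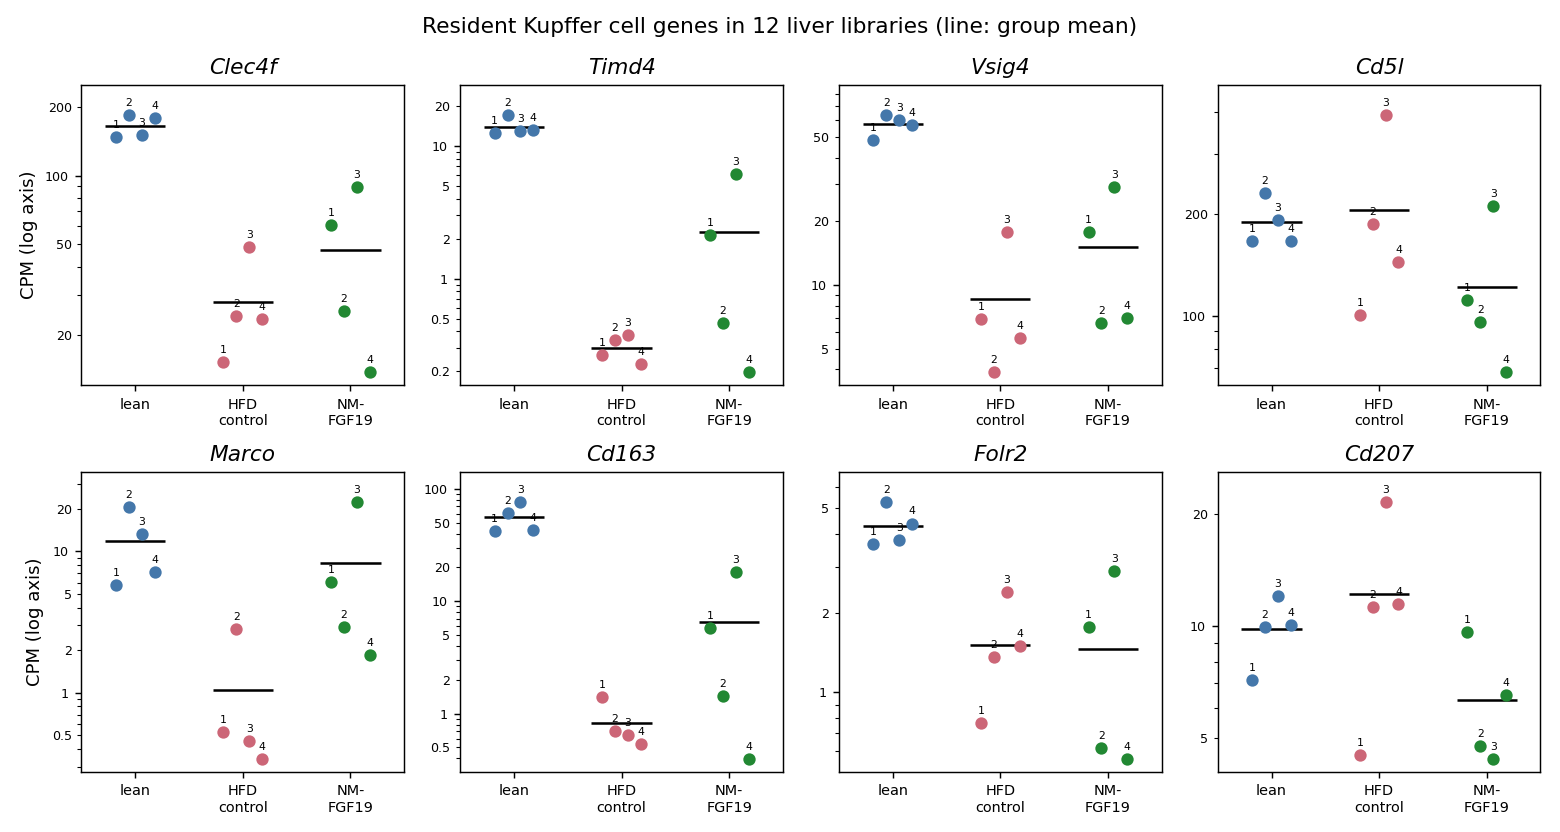
CPM of the 8 genes (log axis, each panel with its own range) in the 12 libraries, grouped as lean, HFD control and NM-FGF19. Points are libraries, numbered by replicate, and lines are group means. Clec4f, Timd4, Vsig4, Marco, Cd163 and Folr2 are lower in all 4 HFD control libraries than in any lean library. Within NM-FGF19 the ratio of the highest to the lowest library runs from 2.19 for Cd207 to 46.2 for Cd163.

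Timd4 (ENSMUSG00000055546, chromosome 11) encodes TIM-4, a receptor for phosphatidylserine on dying cells, and is the marker most closely tied to long-lived resident Kupffer cells. The lean libraries 1 to 4 had 12.5, 17.1, 12.9 and 13.1 CPM of Timd4. HFD control 1 to 4 had 0.264, 0.348, 0.373 and 0.227 CPM, which rest on 10, 12, 14 and 8 counts. The lean values and the HFD control values were far apart, and neither group was widely spread. Mean Timd4 fell from 13.9 ± 2.15 (SD, n = 4) to 0.303 ± 0.0688 CPM, or to 2.18% of the lean mean. Its log2 change was −5.50 ± 0.86 (SE), with an adjusted p of 0.00633 from edgeR, and only 4 of the 15274 genes had a lower log2 change.

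Cd163 (ENSMUSG00000008845, chromosome 6) encodes the scavenger receptor for haemoglobin bound to haptoglobin. Its lean levels were 42.3, 60.8, 77.1 and 42.9 CPM. On the high-fat diet they were 1.4, 0.695, 0.640 and 0.540 CPM, from 53, 24, 24 and 19 counts. The highest HFD control library was thus far below the lowest lean one. Cd163 had the largest fall of the 8 genes, to 1.47% of the lean mean, with a log2 change of −6.08 ± 1.00 (adjusted p = 0.00848, edgeR). It ranked 3 of 15274 from the lowest log2 change. Without lean 3 and HFD control 3 its adjusted p was 0.0602 (edgeR), at a log2 change of −5.75.

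Marco (ENSMUSG00000026390, chromosome 1), a class A scavenger receptor for bacteria and particles, had the widest spread among lean livers. Its lean levels were 5.78, 20.7, 13.2 and 7.16 CPM. Its HFD control levels were 0.528, 2.84, 0.453 and 0.341 CPM, from 20, 98, 17 and 12 counts. HFD control 2 stood above the other HFD control libraries but below every lean library. The log2 change was −3.49 ± 0.93, with an adjusted p of 0.0418 by edgeR. This call rested on several single libraries. Leaving out lean 2, 3 or 4 gave adjusted p-values of 0.0916, 0.0806 and 0.0623 (edgeR). Leaving out HFD control 1, 3 or 4 gave 0.112, 0.128 and 0.0969, and leaving out NM-FGF19 1, which shares the estimate of spread, gave 0.0581. Over all libraries left out singly, the log2 change stayed between −4.71 and −3.06. Without lean 3 and HFD control 3 together the adjusted p was 0.198 (edgeR).

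Clec4f (ENSMUSG00000014542, chromosome 6) encodes a C-type lectin that in the mouse is made almost only by Kupffer cells and that binds galactose-type glycans. Lean livers had 148, 185, 151 and 179 CPM of Clec4f. HFD control livers had 15.3, 24.2, 48.7 and 23.5 CPM, with HFD control 3 the highest. The groups did not overlap. Mean Clec4f fell from 166 ± 19.0 to 27.9 ± 14.5 CPM (SD, n = 4 each), with a log2 change of −2.57 ± 0.53 and an adjusted p of 0.0161 (edgeR).

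Vsig4 (ENSMUSG00000044206, chromosome X) encodes CRIg, the complement receptor with which Kupffer cells catch bacteria from flowing blood. Its levels were 48.6, 63.7, 60.4 and 57.0 CPM in lean livers. They were 6.91, 3.88, 17.8 and 5.65 CPM in HFD control livers, again highest in HFD control 3. The ranges were separate. The log2 change of Vsig4 was −2.74 ± 0.55 (adjusted p = 0.0149, edgeR). Clec4f, Timd4 and Vsig4 passed the threshold under all 21 alternative settings run for this comparison.

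Folr2 (ENSMUSG00000032725, chromosome 7) encodes folate receptor beta, found on resident macrophages of several tissues. Its lean levels of 3.66, 5.29, 3.77 and 4.37 CPM did not overlap its HFD control levels of 0.765, 1.36, 2.40 and 1.51 CPM. The log2 change of −1.50 ± 0.48 missed the threshold, with an adjusted p of 0.0682 and an unadjusted p of 0.00754 (edgeR). DESeq2 and limma voom put it past the threshold, at adjusted p-values of 0.0168 and 0.0390. DESeq2 had 2220 calls over all genes in this comparison, where edgeR had 1272. Folr2 overlaps the predicted genes Gm10602 and Gm45319 on the opposite strand, and the strand setting of the authors' counting is not given, so some of its reads may be theirs.

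Cd5l and Cd207 were not lower in group mean. Cd5l (ENSMUSG00000015854, chromosome 3) encodes AIM, a secreted scavenger receptor protein that macrophages make under LXR-alpha and that travels in blood on IgM. Lean livers had 166, 230, 192 and 166 CPM, and HFD control livers 101, 187, 392 and 144 CPM. HFD control 3 held the highest Cd5l value of all 12 libraries and HFD control 1 lay below the lean range, so the groups overlapped. The log2 change was 0.13 ± 0.41 (adjusted p = 0.886, edgeR), and −0.39 without HFD control 3.

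Cd207 (ENSMUSG00000034783, chromosome 6) encodes langerin, a mannose-binding C-type lectin also known from Langerhans cells and some dendritic cells. Its lean levels were 7.15, 9.93, 12 and 10 CPM, and its HFD control levels 4.49, 11.2, 21.6 and 11.4 CPM. The values overlapped, with both the lowest and the highest in the HFD control group. Cd207 had a log2 change of 0.32 ± 0.39 (adjusted p = 0.672, edgeR), and of −0.11 without HFD control 3. Its neighbour Clec4f, on the same strand, fell in the same livers. Conventional dendritic cells can also make langerin, and the summed level of 8 of their genes was 12.3 to 17.3 CPM in lean, 17.2 to 26.1 in HFD control and 15.0 to 24.3 in NM-FGF19 libraries. Of those 8, 0 passed the edgeR test in this comparison, 3 had an unadjusted p under 0.05, and Cd209a was at 0 counts in lean 1 and lean 3. Over all genes 8.33% passed and 24.6% had an unadjusted p under 0.05. Log2 changes were positive for all 8, with a median of 0.65. Zbtb46, their most abundant gene and a dendritic cell transcription factor, had a log2 change of 0.56 ± 0.20 (adjusted p = 0.104, edgeR). The part of dendritic cells in the Cd207 level was not tested.

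Read against the lean range, the non-overlap count was 6 of 8 genes lower and 0 higher, while 6.89% of all genes tested had all HFD control libraries below all lean ones and 8.4% above. Library totals without TMM gave the same 5 calls as a count for the 8 genes. For all genes, that scaling moved the median log2 change from −0.02 to 0.29 and the calls from 502 lower and 770 higher to 228 lower and 2381 higher. The median of the 8 genes was then −2.32.

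**Figure D2:**
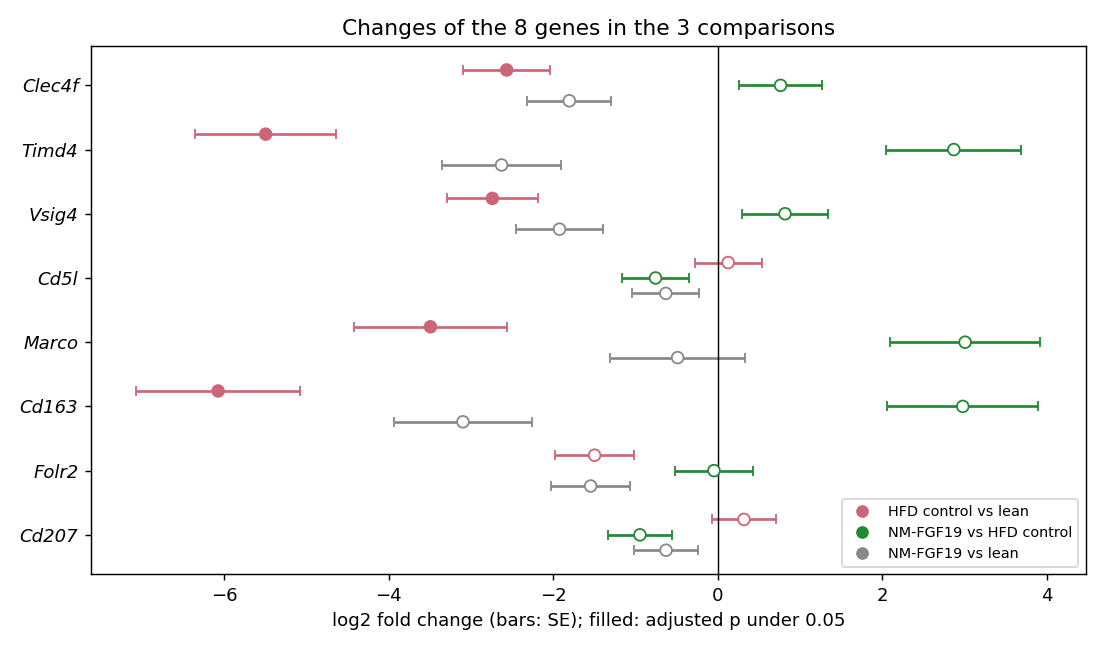
Log2 fold changes of the 8 genes in the 3 comparisons, from edgeR (bars are SE, filled points have an adjusted p under 0.05). Filled points are seen only for HFD control against lean, for Clec4f, Timd4, Vsig4, Marco and Cd163.

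The order of the genes by level, taken per kilobase of exon (GENCODE M21 lengths, an older annotation than the counts), changed with the diet. In lean livers it was Cd5l at 92.7 ± 14.9 CPM per kb, Clec4f at 67.0 ± 7.68, Vsig4 at 38.7 ± 4.38 and Cd163 at 10.2 ± 3.04 (SD, n = 4). Cd207, Timd4 and Marco followed at 6.43 ± 1.32, 6.39 ± 0.988 and 6.08 ± 3.53 CPM per kb, and Folr2 was lowest at 2.76 ± 0.483. Cd207, Timd4, Marco and Folr2 were each within 1 SD of the next in that order, taking the larger SD of the pair. In HFD control livers Cd5l led at 101 ± 63.5 CPM per kb, before Clec4f at 11.3 ± 5.85, Cd207 at 8.0 ± 4.63 and Vsig4 at 5.78 ± 4.25. By the same measure Clec4f, Cd207 and Vsig4 did not differ beyond their spread. Folr2 and Marco came next at 0.976 ± 0.437 and 0.540 ± 0.624 CPM per kb. Cd163 and Timd4 were lowest, at 0.150 ± 0.0718 and 0.139 ± 0.0317, and from Folr2 down no neighbours differed beyond their spread. In NM-FGF19 livers the order of the means was Cd5l, Clec4f, Vsig4, Marco, Cd207, Cd163, Timd4 and Folr2, from 59.8 ± 30.5 to 0.942 ± 0.711 CPM per kb. Neighbours in that order differed beyond their spread only between Cd5l and Clec4f and between Cd207 and Cd163.

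Of 17 genes shared by most macrophages, 0 were called lower on the high-fat diet. Over all genes tested 3.29% were lower, so 0 of 17 is close to that share. These pan-macrophage genes, among them Adgre1 (F4/80), Csf1r and the C1q chains, summed to 781 to 1026 CPM in lean, 797 to 1774 in HFD control and 801 to 1072 in NM-FGF19 libraries, with the highest sum in HFD control 3. By edgeR 2 of the 17 were higher, 0 lower and 15 did not pass, where 5.04% of all genes were higher. The 2 were Fcgr1, an Fc receptor (1.27 ± 0.31 on the log2 scale, adjusted p = 0.0260), and Cd68, a lysosomal glycoprotein (1.08 ± 0.28, adjusted p = 0.0330; edgeR for both). Within a library, the summed CPM of the 8 Kupffer cell genes was 51.8 to 57.8 per 100 CPM of the pan-macrophage genes in lean livers. It was 12 to 27.3 in HFD control livers, below every lean value. This ratio does not depend on scaling between libraries. The summed CPM itself overlapped, at 434 to 593 in lean and 130.2 to 484 in HFD control livers. The 484 was in HFD control 3, where Cd5l alone was 392 CPM and the pan-macrophage sum was the highest of all libraries. For single genes per 100 CPM of the pan-macrophage genes, Timd4 went from 1.5 ± 0.167 to 0.0266 ± 0.00495 and Clec4f from 18 ± 2.19 to 2.34 ± 0.683 (SD, n = 4). Cd207 was at 1.05 ± 0.131 and 1.03 ± 0.438, and Cd5l at 20.4 ± 1.81 and 16.7 ± 5.37.

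Other genes enriched in Kupffer cells moved in part. Of 10 on that list, 3 were lower on the high-fat diet, 0 higher and 7 did not pass, with a median log2 change of −1.22. Fcna, the lectin ficolin A that starts complement, fell from 60.4 ± 6.07 to 11.5 ± 3.60 CPM (log2 change −2.39 ± 0.32, adjusted p = 0.00285, edgeR). C6, a complement component that hepatocytes also make, had a log2 change of −1.32 ± 0.32 (adjusted p = 0.0239, edgeR). Xlr, named after its value was seen, was the third (−2.45 ± 0.69, adjusted p = 0.0460, edgeR). Its HFD control mean was 0.124 ± 0.0536 CPM, from 18 counts summed over the group, which is near the level of 3 counts a library. Clec1b, the lectin CLEC-2, was at 14.4 ± 1.93 CPM in lean and 14.4 ± 6.18 in HFD control livers. It too was named after its value was seen.

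Of 12 transcription factors tied to Kupffer cell identity, 0 were lower, 2 higher and 10 did not pass, with a median log2 change of 0.00. Over all genes tested 3.29% were lower and 5.04% higher, so 0 of 12 lower is close to the overall share. Zeb2, a repressor that keeps tissue macrophage identity, rose by 0.77 ± 0.15 on the log2 scale (adjusted p = 0.0110, edgeR), from 13.4 ± 0.681 to 22.8 ± 3.16 CPM. Maf, a bZIP factor of mature macrophages, rose by 0.61 ± 0.14 (adjusted p = 0.0236, edgeR). Values for factors that did not pass, named after they were seen, were −0.10 ± 0.14 for Nr1h3 (LXR-alpha), −0.50 ± 0.46 for Id3 and −0.30 ± 0.33 for Spic. Several of these factors are also made by other liver cells.

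Among 13 niche signals and their receptors, 2 were higher, 0 lower and 11 did not pass, with a median log2 change of 0.20. The shares over all genes were 5.04% higher and 3.29% lower. Tgfb1, the ligand TGF-beta, rose from 16.5 ± 1.99 to 31.6 ± 5.16 CPM (log2 change 0.94 ± 0.18, adjusted p = 0.0103, edgeR). Eng, the TGF-beta co-receptor endoglin of endothelial cells, rose by 0.66 ± 0.13 (adjusted p = 0.0114, edgeR). Csf1r, which is on both this list and the pan-macrophage list, had a log2 change of −0.43 ± 0.21 (adjusted p = 0.225, edgeR), named after its value was seen.

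Genes listed for monocyte-derived or lipid-associated macrophages were mostly called higher, which does not show where the cells that made them came from. Of 14 monocyte-derived and lipid-associated macrophage genes, 13 were tested, of which 8 were higher, 1 lower and 4 did not pass, with a median log2 change of 2.40. Cx3cr1, the fractalkine receptor, went from 1.72 ± 0.106 to 14.3 ± 4.37 CPM (log2 change 3.05 ± 0.32, adjusted p = 0.00139, edgeR). Itgax, the integrin CD11c, went from 1.55 ± 0.248 to 14.8 ± 6.79 CPM (3.26 ± 0.36, adjusted p = 0.00141, edgeR). The 1 gene that fell was Fabp5, a fatty acid carrier that hepatocytes also make (−2.67 ± 0.62, adjusted p = 0.0261, edgeR). None of the 14 was at 0 counts in any library. Their summed level was 131 to 489.6 CPM in lean, 259 to 630.2 in HFD control and 154 to 387 in NM-FGF19 libraries, so the sums overlapped. Spp1, named after its value was seen, and Fabp5 had the highest lean means of the list, at 114 ± 93.0 and 74.2 ± 37.0 CPM. Their HFD control means were lower, at 59.1 ± 41.7 and 11.6 ± 3.14 CPM. Of the 13 tested genes, 9 were higher in every HFD control library than in any lean one and 1 was lower. These shares were 8.4% and 6.89% over all genes. Ptprc (CD45), a gene of all white blood cells, rose by 0.90 ± 0.18 (adjusted p = 0.0130, edgeR). Whether cells of these kinds take part in the level of any of the 8 genes was not tested.

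Of 8 sinusoidal endothelial genes, 1 was higher (Fcgr2b, an inhibitory Fc receptor, 0.54 ± 0.16, adjusted p = 0.0496, edgeR) and 7 did not pass. Their sums were 436 to 463 CPM in lean, 420 to 564 in HFD control and 474 to 554 in NM-FGF19 libraries. Of 8 hepatocyte genes, 1 was lower, namely Fgb (fibrinogen beta chain, −2.04 ± 0.38, adjusted p = 0.0103, edgeR). The hepatocyte sums were 84001 to 118414 CPM in lean and 49998 to 70511 CPM in HFD control libraries, which did not overlap. Their part in the changes of the 8 genes was not tested. Large peritoneal macrophages also make Timd4. Of their 6 listed genes 5 were tested and 1 was higher (Icam2, an adhesion molecule, 1.03 ± 0.21, adjusted p = 0.0133, edgeR). That list is a weak guide in liver, since hepatocytes make F5 and Prg4. Of 8 neutrophil genes 7 were tested and 0 passed (4 at an unadjusted p under 0.05, edgeR), with a median log2 change of −1.48. The shares over all genes were 8.33% and 24.6%. Log2 changes were negative for 6 of the 7. S100a9, a calcium-binding protein and the most abundant of them in mean CPM, was at 15.8 ± 13.4 CPM in lean and 5.54 ± 0.599 CPM in HFD control livers (log2 change −1.51 ± 0.66, adjusted p = 0.181, edgeR). S100a8, its partner protein, named after its values were seen, was lower in every HFD control library than in any lean one (−1.48 ± 0.53, adjusted p = 0.107, edgeR).

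**Figure D3:**
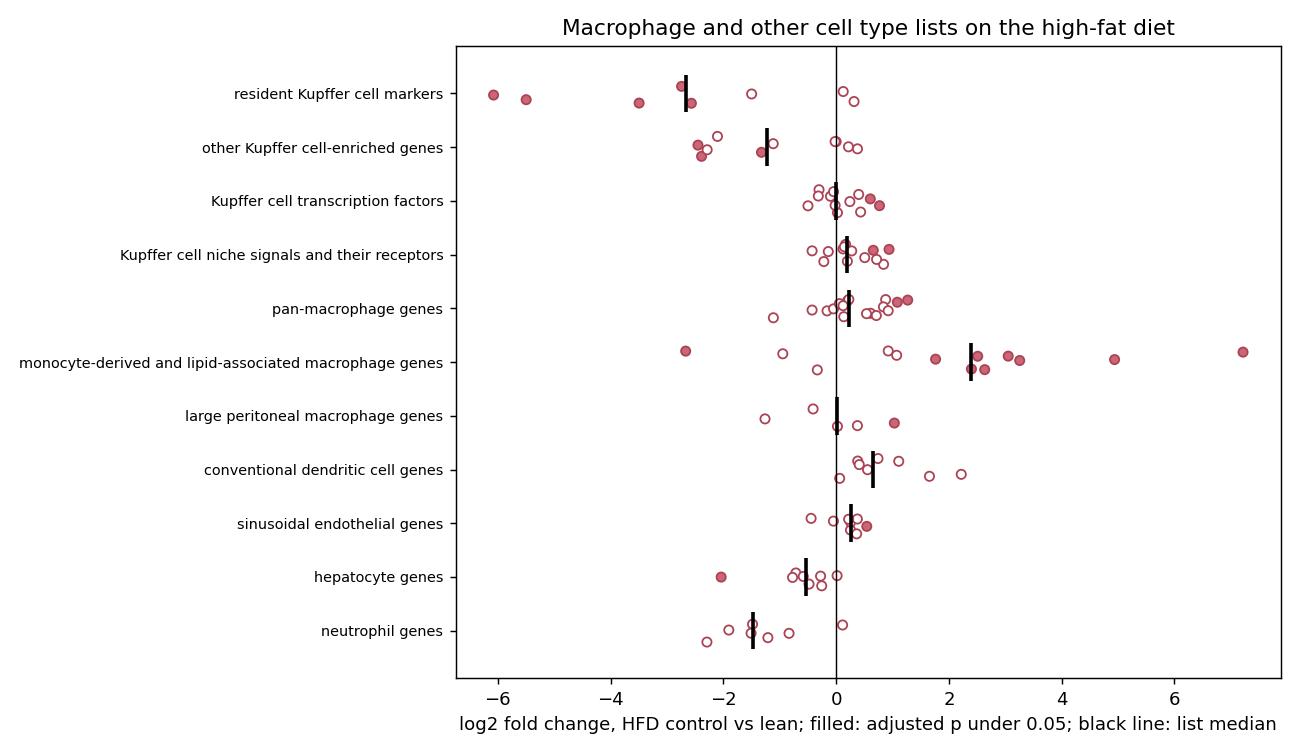
Log2 fold changes of HFD control against lean for each tested gene of 11 lists, one list a row. Filled points have an adjusted p under 0.05 (edgeR) and black lines are list medians, which are −2.65 for the resident Kupffer cell markers and 2.40 for the monocyte-derived and lipid-associated genes. Vertical scatter within a row has no meaning.

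The second comparison, NM-FGF19 against HFD control, asks what the NM-FGF19 mRNA changed on the high-fat diet. None of the 8 genes passed the edgeR test (0 of 8, against 0.432% of all genes tested), and all 8 overlapped between the groups, where 2.38% of all genes had no overlap and were lower and 3.23% had none and were higher. Log2 changes were negative for 3 of the 8 and 50.1% of all genes. At an unadjusted p under 0.05 there were 4 (Timd4, Marco, Cd163 and Cd207), against 8.94% of all genes. DESeq2 put 3 past the threshold, all higher, with adjusted p-values of 0.0294 for Timd4, 0.0384 for Cd163 and 0.0436 for Marco, and limma voom put 0. Over all genes DESeq2 also called more, with 289 calls where edgeR had 66. The median log2 change of the 8 was 0.79, against 0.00 over all genes.

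The NM-FGF19 libraries were more spread than the HFD control libraries for Clec4f, Timd4, Marco, Cd163 and Folr2, by the ratio of the highest to the lowest, and less spread for Vsig4, Cd5l and Cd207. Timd4 stood at 2.11, 0.462, 6.15 and 0.198 CPM in NM-FGF19 1 to 4. The values in NM-FGF19 1, 2 and 3 were above every HFD control library and that of NM-FGF19 4, from 6 counts, below every one. The log2 change was 2.87 ± 0.82 (adjusted p = 0.233, edgeR), and 1.60 without NM-FGF19 3.

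Cd163 repeated this order, at 5.83, 1.42, 18.3 and 0.395 CPM. Again NM-FGF19 4 lay below all HFD control libraries and the other 3 above. The ratio of the highest to the lowest NM-FGF19 library was 46.2 for Cd163 and 31.1 for Timd4, against 2.59 and 1.64 within HFD control. The log2 change of Cd163 was 2.98 ± 0.92 (adjusted p = 0.297, edgeR), and 1.63 without NM-FGF19 3.

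For Marco the NM-FGF19 libraries had 6.07, 2.92, 22.4 and 1.85 CPM. The first 3 were above all HFD control values and NM-FGF19 3 above all lean values. Its log2 change was 3.01 ± 0.91 (adjusted p = 0.286, edgeR), 1.79 without NM-FGF19 3 and 4.22 without HFD control 2.

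For Clec4f and Vsig4, too, NM-FGF19 3 was the highest and NM-FGF19 1 the next, in a narrower range. Clec4f was at 61.1, 25.5, 89.1 and 13.8 CPM, and NM-FGF19 1 and 3 were above all HFD control libraries. Vsig4 was at 17.9, 6.62, 29.0 and 6.99 CPM, likewise with NM-FGF19 1 and 3 above all HFD control libraries, the former by little. Their log2 changes were 0.76 ± 0.50 and 0.82 ± 0.52 (adjusted p = 0.725 and 0.721, edgeR).

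Folr2, Cd5l and Cd207 were not higher as a group mean. Folr2 stood at 1.77, 0.615, 2.88 and 0.560 CPM, with a log2 change of −0.05 ± 0.48 (adjusted p = 0.990, edgeR). Cd5l stood at 112, 96.2, 211 and 68.2 CPM (−0.76 ± 0.41, adjusted p = 0.649). Cd207 stood at 9.61, 4.73, 4.38 and 6.52 CPM (−0.95 ± 0.39, adjusted p = 0.487, unadjusted p = 0.0315, edgeR). Cd207 alone among the 8 had its lowest NM-FGF19 value in NM-FGF19 3.

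**Figure D4:**
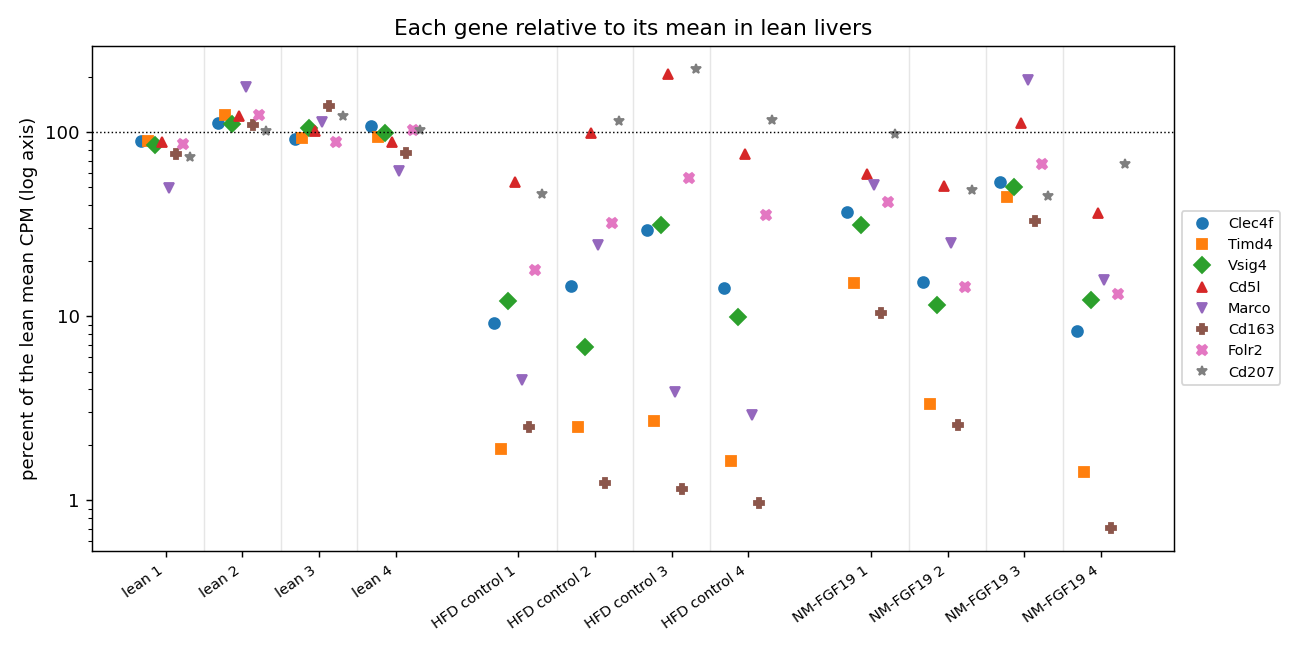
Each gene's CPM in each library as a percent of its mean in lean livers (log axis, the dotted line is 100%). In the HFD control libraries Timd4 and Cd163 sit at 0.968 to 2.69%, and in the NM-FGF19 libraries they reach 44.3% and 32.8% in replicate 3 but 1.42% and 0.709% in replicate 4.

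As a percent of the lean mean, NM-FGF19 3 had 53.8% for Clec4f, 50.4% for Vsig4, 44.3% for Timd4 and 32.8% for Cd163. NM-FGF19 1 had 36.9%, 31.1%, 15.2% and 10.5% for the same genes. NM-FGF19 2 had 15.4%, 11.5%, 3.32% and 2.55%, and NM-FGF19 4 had 8.34%, 12.2%, 1.42% and 0.709%. NM-FGF19 3 was the highest of its group for 7 of the 8 genes, against 23.2% of all genes tested. NM-FGF19 1 and 3 were both above NM-FGF19 2 and 4 for 7 of 8, against 18.6% of all genes. The exception in each case was Cd207. Both orders were read from these same values, and the 8 genes come from the same 4 libraries. The shares therefore describe the order and do not test it. The summed 8 genes per 100 CPM of pan-macrophage genes were 24.2, 17.3, 35.7 and 9.74 in NM-FGF19 1 to 4. The labels give nothing that sets these 4 libraries apart, so no test was made among them.

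Other values differed along with these levels in single NM-FGF19 libraries. Albumin took 7.11, 9.0, 5.48 and 8.86% of counts in NM-FGF19 1 to 4, lowest in NM-FGF19 3. The summed neutrophil genes were 12, 7.0, 6.52 and 30.0 CPM, and the summed monocyte-derived and lipid-associated genes 237, 154, 173 and 387 CPM, both highest in NM-FGF19 4. Of the 8 neutrophil genes, Ly6g was at 0 counts in NM-FGF19 1 to 3, Mpo in NM-FGF19 2 and Retnlg in NM-FGF19 3. Pan-macrophage sums were 892, 801, 1072 and 1011 CPM. Their part in the spread was not tested. In this comparison 0 of the 101 tested genes of the other lists, Ptprc included, passed the edgeR test, and 19 had an unadjusted p under 0.05. Over all genes the shares were 0.432% and 8.94%. Log2 changes were negative for 16 and positive for 1 of the 17 pan-macrophage genes, with a median of −0.55. For the 13 monocyte-derived and lipid-associated genes they were negative for 12 and positive for 1, with a median of −0.71. The pan-macrophage sum is the base of the ratio given above for these libraries.

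The third comparison, NM-FGF19 against lean, shares the NM-FGF19 libraries with the second and the lean libraries with the first. All 8 genes had negative log2 changes, against 51.6% of all genes. Of the 8, 0 passed the edgeR test, where 1.49% of all genes passed in either direction, 0.484% being lower and 1.01% higher. Values of all NM-FGF19 libraries were below all lean values for 5 of 8 (Clec4f, Timd4, Vsig4, Cd163 and Folr2), against 4.84% of all genes (5.46% were above all lean values). The log2 changes of these 5 were −1.81 ± 0.51, −2.63 ± 0.72, −1.93 ± 0.53, −3.10 ± 0.84 and −1.55 ± 0.48, with adjusted p-values from 0.0942 to 0.121 (edgeR). DESeq2 put all 5 past the threshold and limma voom 3 (Timd4, Vsig4 and Cd163). Their calls over all genes were 969 with DESeq2 and 112 with limma voom, where edgeR had 228. Without NM-FGF19 3, edgeR put Timd4 and Cd163 past it, at log2 changes of −3.88 and −4.43 (adjusted p = 0.0142 and 0.0250). At an unadjusted p under 0.05 there were 5 of the 8 genes, against 16.7% of all genes.

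Marco, Cd5l and Cd207 overlapped the lean range, and their log2 changes were −0.49 ± 0.82, −0.63 ± 0.41 and −0.63 ± 0.39 (adjusted p of 0.822, 0.478 and 0.456, edgeR). Side by side, the group means of Timd4 were 13.9 CPM (lean), 0.303 CPM (HFD control) and 2.23 CPM (NM-FGF19). In the same order, Cd163 had 55.7, 0.818 and 6.48 CPM, and Marco had 11.7, 1.04 and 8.32 CPM. The SDs in the NM-FGF19 group, 2.75, 8.21 and 9.58 CPM, were larger than the means. Of the other Kupffer cell genes only Fcna passed in this comparison (−2.03 ± 0.31, adjusted p = 0.0122, edgeR), at 14.8 ± 7.47 CPM in NM-FGF19 livers. The monocyte-derived and lipid-associated list had 4 higher and 0 lower of 13, led by Cx3cr1 (2.34 ± 0.32) and Itgax (2.64 ± 0.35), both with an adjusted p of 0.00588 (edgeR). Eng was higher among the niche genes (0.67 ± 0.13, adjusted p = 0.0227, edgeR), and the remaining lists had 0 calls.

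Across the 12 libraries the 6 genes that were lower on the high-fat diet in every library were correlated. The Pearson correlation of log2 CPM over their 15 pairs was 0.604 to 0.989, with a median of 0.885. With each group's mean subtracted, it was 0.324 to 0.963, with a median of 0.755. Timd4 and Cd163 were the closest pair at 0.989, and 0.941 with group means subtracted. That 0.941 rests mostly on the NM-FGF19 libraries, where the highest was 31.1 and 46.2 times the lowest for these genes. The ratios were 1.37 and 1.82 in lean and 1.64 and 2.59 in HFD control libraries. For Vsig4 the HFD control libraries were the more spread, at 4.60 against 4.38. The 6 genes were grouped by their values in these same libraries. Pairs with Cd207 had −0.200 to 0.635, with a median of 0.180, and a median of 0.310 with group means subtracted. Cd5l, which did not pass the test on the diet, also varied with several of the 6 once group means were subtracted, at 0.871 with Clec4f, 0.857 with Folr2 and 0.770 with Vsig4. Both genes of a pair share the library and its scaling, and differences between the groups enter the values without subtraction, so these are descriptions without a test.

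The genes most like the 8, by the Pearson correlation of their log2 CPM with the mean z-score of the 8 over the 12 libraries, were Pcolce2 (0.956), Gbp2b (0.948), Kcnj16 (0.939), Lilra5 (0.935), Cxcl13 (0.929), Ptgs1 (0.896), Ccdc148 (0.889) and Fcna (0.884). With group means subtracted they were Pcolce2 (0.937), Kctd12 (0.872), Ptgs1 (0.861), Cd226 (0.854), Cfp (0.851), Ccni (0.849), Cxcl13 (0.820) and Epb41l3 (0.818). Pcolce2, Ptgs1 and Cxcl13 were in both sets. Pcolce2, an enhancer of procollagen processing, had 3.39, 5.34, 4.18 and 6.07 CPM in lean, 0.739, 0.985, 1.57 and 0.568 in HFD control and 2.59, 0.538, 3.41 and 0.198 in NM-FGF19 libraries. It is also on the list of other genes enriched in Kupffer cells. As with Timd4 and Cd163, NM-FGF19 3 and 1 were its highest libraries on the high-fat diet and NM-FGF19 4 its lowest. Pcolce2 was picked by its correlation with the 8, so a shared order of libraries was built in. Its log2 change of −2.29 ± 0.66 on the diet did not pass (adjusted p = 0.0514, edgeR). Cxcl13, a B cell chemokine, had 1.30 to 2.79 CPM in lean libraries and was at 0 counts in HFD control 1 and 2 and in NM-FGF19 2 and 4, while NM-FGF19 1 and 3 had 0.477 and 0.401 CPM. Cxcl13 was picked in the same way as Pcolce2, so its order of libraries was built in too. Cfp (properdin) and Ccni, found with group means subtracted, had changes on the diet of −0.14 ± 0.24 and 0.02 ± 0.10 on the log2 scale (adjusted p of 0.767 and 0.924, edgeR).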

How the data were processed

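Liver RNA-seq of 12 libraries (3 groups of 4) was analysed. The deposited values are raw read counts per gene, made by the authors from stranded mRNA libraries (paired reads) with Trimmomatic, STAR and featureCounts on mm39, per the submitters' processing notes. Their versions, the annotation and the strand setting were not given in the sources used here. The table held 55359 genes, of which 52083 matched a symbol; IDs without one held 0.515% of counts. All 12 columns were mapped by the labels' names.

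Genes were tested with edgeR 4.0.16 (R 4.3.3): TMM scaling, filterByExpr with a minimum count of 10 (15274 genes kept), 1 robust quasi-likelihood fit of all 12 libraries with group as its only term, 2-sided F tests and Benjamini-Hochberg adjustment over all genes, at a threshold of 0.05. SEs are those implied by F. Correlations used log2(CPM + 0.1). The labels number replicates but do not state that each is a separate mouse, so p-values measure the spread between these samples, which may be technical. Totals of 23743415 to 33257260 counts limit precision for the lowest genes, and a floor of 3 counts covers counting error only.

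The 8 genes, the other lists and the tests were chosen with earlier results of these data known. Named genes were the 8, per list the 2 called genes with the smallest adjusted p in the main direction and 1 in the other (or the most abundant gene), and the 8 genes most like the 8 by each of 2 measures. Alternatives were DESeq2 1.42.0, limma 3.58.1 voom, RLE factors, library totals, other filters, the 2 groups alone, a replicate block and each library left out. Correlations between replicates were 0.948 to 0.981 and no 2 libraries of the same group were alike within counting error.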

Additional observations from a re-analysis of the deposited data

Results flagged for a closer look

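Among the 24 sets of 4 values (8 genes in 3 groups), 2 had a single library far from the other 3, by a gap to the nearest value that, as a share of the set's whole range, was above the 95% critical value of Dixon's test. Chance alone gives about 1 in 20 such sets. Timd4 in lean 2 was 17.1 CPM against 13.1 for the next lean library, a gap of 0.870 of the range. Marco in HFD control 2 was 2.84 CPM against 0.528 for the next HFD control library, a gap of 0.925 of the range, and without that library the log2 change of Marco on the high-fat diet was −4.71.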

How the results depend on the processing

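For HFD control against lean, Clec4f, Timd4 and Vsig4 passed the threshold in 21 of 21 alternatives, Cd163 in 20, Marco in 12 and Folr2 in 5. The count of the 8 genes called was 5, with 4 to 6 when single libraries were left out and 3 without lean 3 and HFD control 3. NM-FGF19 against HFD control had 0 called, 3 with DESeq2 and 0 to 0 with single libraries left out. NM-FGF19 against lean had 0 called, 5 with DESeq2, 3 with limma voom and 0 to 2 with single libraries left out. Signs changed only for small values. Cd5l on the diet (0.13) was −0.056 with limma voom, −0.36 with lean 3 and HFD control 3 left out, and −0.39 (HFD control 3 left out) to 0.38 with single libraries left out. Cd207 (0.32) was −0.11 (HFD control 3 left out) to 0.62 with single libraries left out. Folr2 in NM-FGF19 against HFD control (−0.05) was −0.62 to 0.27 with single libraries left out, above 0 for HFD control 3 (0.27), NM-FGF19 2 (0.19) and NM-FGF19 4 (0.22), and 0.27 with both lean 3 and HFD control 3 out. The cause of these changes was not tested. Low counts limit Timd4, at 8 to 14 counts in HFD control libraries, and Marco, at 20, 98, 17 and 12 counts in HFD control 1 to 4.

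Over all genes, HFD control against lean had 1272 calls, 2220 with DESeq2, 2609 with library totals, 480 without lean 3 and HFD control 3, and 537 to 1528 with single libraries left out. NM-FGF19 against HFD control had 66 calls, 289 with DESeq2, 38 with only the 2 groups, 38 without lean 3 and HFD control 3, and 18 to 84 with single libraries left out. NM-FGF19 against lean had 228 calls, 969 with DESeq2, 112 with limma voom, 398 with library totals, 117 with only the 2 groups, and 67 to 273 with single libraries left out.

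Replicate numbers do not pair the samples. Over 12 pairs of libraries with the same number the deviations from group means correlated at −0.370 to 0.0743. With the replicate block the 3 comparisons had 593, 18 and 40 calls over all genes and 5, 0 and 0 among the 8 genes, and the Cd5l change on the diet was −0.067.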
